A study of Mus musculus with 8 samples.

Results

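The loci described here are stretches of the mouse genome that a transcript assembler reported from these libraries and that carry a placeholder identifier with a running number in place of an Ensembl gene identifier. They were taken as every row of the deposited count table with such a placeholder, apart from 1 row that is not reported, which gave 337 loci of 54139 rows. Each locus is called here by its running number, so that locus 228 is the row numbered 228. RNA came from intestinal epithelial cells of mice in 8 libraries. The 4 WT libraries were from animals of genotype Villin-Cre, and the 4 cKO libraries from animals of genotype Rictor Flox; Villin-Cre. Villin-Cre places Cre recombinase under the promoter of villin, an epithelial brush border gene, so both groups carried the driver and cKO animals additionally had a Rictor allele that Cre can delete in the epithelium. Age, sex, strain, intestinal segment and the exons flanked by loxP sites are not stated in the labels, nor is it stated that the libraries are separate animals, so p-values measure the spread between libraries, part of which may be technical.

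A transcript assembler such as StringTie joins aligned reads into transcripts whether or not a gene is annotated there. In mouse tissue such loci commonly include endogenous retroviruses and LINE elements, repeated sequences descended from mobile elements that can carry gag, protease, reverse transcriptase, integrase and envelope reading frames. They also include young KRAB zinc finger genes, a large family of transcription factors that bind DNA through C2H2 fingers and recruit repressive chromatin through the KRAB box, with transposable elements among their best known targets. Other loci lie on genome patches, which are sequences that the genome consortium releases beside the chromosomes to correct a region or to hold another strain's version of it, so that a gene there can also be present on its chromosome. Rictor is the defining subunit of mTOR complex 2, a kinase complex upstream of Akt.

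No sequence of the loci themselves was used here, but for 25 loci the RefSeq table of promoters (build GRCm38.p6) holds a start site within 200 bases of the locus's 5′ end on the same strand. The promoters of 5 KRAB zinc finger loci are shown because locus 90 was among the loci with the smallest p between genotypes and because loci 77, 78 and 79 lie side by side. Each runs 5′ to 3′ on the strand of the gene, from 250 bases before the start site to 50 bases after it, with CCAAT and GGGCGG on either strand in capitals. The promoter of Gm7072 (locus 90) is at chr17:22314793-22315092 on the minus strand. Those of Gm51425 (locus 77), Gm38396 (locus 78) and Gm5165 (locus 79) are at chr17:17004866-17005165, chr17:17179055-17179354 and chr17:17234653-17234952, all on the plus strand. The promoter of Zfp33b (locus 175) is at chr5:104571422-104571721 on the plus strand.
Gm7072: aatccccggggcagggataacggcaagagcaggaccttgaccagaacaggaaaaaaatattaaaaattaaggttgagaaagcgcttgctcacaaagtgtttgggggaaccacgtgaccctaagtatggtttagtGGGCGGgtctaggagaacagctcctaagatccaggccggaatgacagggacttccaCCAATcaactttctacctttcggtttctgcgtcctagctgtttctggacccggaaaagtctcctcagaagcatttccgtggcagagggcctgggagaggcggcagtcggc
Gm51425: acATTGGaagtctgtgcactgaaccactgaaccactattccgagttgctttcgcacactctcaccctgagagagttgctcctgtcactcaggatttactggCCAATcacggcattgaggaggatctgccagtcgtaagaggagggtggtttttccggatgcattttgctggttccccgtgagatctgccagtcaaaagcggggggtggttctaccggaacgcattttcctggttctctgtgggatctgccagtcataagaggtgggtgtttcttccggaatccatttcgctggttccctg
Gm38396: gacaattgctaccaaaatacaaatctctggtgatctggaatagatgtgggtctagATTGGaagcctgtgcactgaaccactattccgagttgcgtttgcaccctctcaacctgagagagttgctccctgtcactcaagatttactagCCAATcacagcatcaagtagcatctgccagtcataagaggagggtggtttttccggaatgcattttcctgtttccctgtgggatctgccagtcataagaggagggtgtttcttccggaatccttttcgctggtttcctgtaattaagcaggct
Gm5165: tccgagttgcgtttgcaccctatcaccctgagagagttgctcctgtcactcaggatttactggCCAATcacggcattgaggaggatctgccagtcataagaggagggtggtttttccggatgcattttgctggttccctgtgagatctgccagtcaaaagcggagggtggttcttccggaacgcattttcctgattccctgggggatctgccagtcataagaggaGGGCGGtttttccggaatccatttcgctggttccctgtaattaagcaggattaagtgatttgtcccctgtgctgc
Zfp33b: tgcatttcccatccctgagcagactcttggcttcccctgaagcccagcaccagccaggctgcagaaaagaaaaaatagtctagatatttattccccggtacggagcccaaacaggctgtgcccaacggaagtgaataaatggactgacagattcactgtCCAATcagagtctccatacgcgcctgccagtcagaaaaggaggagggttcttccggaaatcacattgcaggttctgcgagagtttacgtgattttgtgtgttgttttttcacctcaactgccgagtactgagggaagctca

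Gm51425 and Gm5165 shared a run of 73 identical bases, Gm38396 and Gm5165 a run of 36, and Gm51425 and Gm38396 a run of 26. By contrast, Gm7072 shared at most 8 with any of the other 4, and Zfp33b at most 13. Every one of the 5 promoters held CCAAT (or its complement), and those of Gm7072 and Gm5165 also held GGGCGG. Among all 25 promoters, 13 held CCAAT (52.0%, against 37.4% of the 32851 promoters in the table), 6 held GGGCGG (24.0% against 35.7%) and 2 held TATAAA (8.0% against 13.6%). The letters of these 3 motifs were searched on both strands and do not overlap one another. Median GC content was 50.7% in the 25 promoters and 52.7% in all.

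Of the 337 loci, 245 were on chromosomes, 89 on 36 patches and 3 on unplaced scaffolds. The plus strand held 169 and the minus strand 168. Their transcript length had a median of 1474 bases (200 to 11970) and their span on the genome a median of 5524 bases (up to 330675). In 71 loci span and length were equal, which is an unspliced locus. Among the longest were loci 278 (11970 bases), 105 (11777), 147 (11741), 293 (11082) and 75 (9268). The largest spans were those of loci 313 (330675 bases), 270 (127268), 257 (101776), 278 (98859) and 315 (94619), all on patches.

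The deposited description gave Pfam protein domains for 132 loci, and each was put in 1 class by these names: 33 with a retroelement domain, 13 with a KRAB box or C2H2 fingers and no retroelement domain, and 86 with other domains only, of which 74 were on patches. Locus 71, with L1 domains and a KRAB box, is in the retroelement class. The other 205 had none. Against the GENCODE M21 annotation, an Ensembl gene set on build GRCm38, 212 loci lay between genes, 22 shared an exon with a gene on the same strand, 3 lay in an intron of one, 8 met an exon and 2 an intron on the opposite strand, and 1 could not be placed. For 20 of the 22 that shared a same-strand exon, the M21 gene was absent from the deposited table. These included Gm17783 (locus 67), A630089N07Rik (locus 71) and Gm5165 (locus 79). RefSeq genes of GRCm38.p6 overlapped 128 of the 245 chromosome loci, 79 of them annotated as long noncoding RNA, 35 as protein coding and 11 as pseudogenes, and 54 shared over 50% of the joint span with that gene.

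Total counts ran from 15110451 to 18708335 per library. Rictor itself, in CPM (the count scaled to the TMM-adjusted library total), averaged 48.2 ± 7.51 over the WT libraries and 32.8 ± 9.24 over the cKO libraries (SD). The groups did not overlap (41.7 to 57.3 CPM in WT, 20.8 to 40.6 CPM in cKO), as in 1.8% of all rows in that direction. The log2 fold change of Rictor was -0.55 (SE 0.20), with an unadjusted p of 0.019 and an adjusted p of 0.921 in edgeR. It was -0.29 without both libraries numbered 3 and -0.25 in limma voom with sample quality weights. WT library 3 differed from each other WT library by a chi-square of 47.0 to 67.0 per degree of freedom, against 10.7 to 25.3 among the others. For cKO library 3 the range was 47.8 to 66.6, against 20.6 to 51.3. All 12 epithelial markers were detected, summing to between 13509 and 16223 CPM in WT and between 13135 and 16625 CPM in cKO. The 9 T cell markers summed to 145 to 488 CPM in WT and 183 to 597 CPM in cKO, and 9 B and plasma cell markers to 219 to 252 CPM in WT and 236 to 338 CPM in cKO; the part of these cells in the results was not tested. Stroma markers summed to 9.95 to 15.9 CPM in WT and 11.3 to 20.3 CPM in cKO, and macrophage markers to 3.10 to 5.13 and 5.20 to 8.77 CPM. Exocrine pancreas markers summed to 3.87 to 8.34 CPM in WT and 4.19 to 7.02 CPM in cKO, and endothelial markers to 0.856 to 1.85 and 1.35 to 2.25 CPM. The part of these cells was not tested either. Smooth muscle, enteric neuron and erythroid lists each summed to under 2 CPM in every library.

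Together the 337 loci took between 0.182% and 0.254% of counts per library, 0.236% ± 0.0155 in WT and 0.216% ± 0.0252 in cKO (SD, n = 4 each). The lowest library was cKO library 3, and the other 3 cKO libraries lay inside the WT range or just under it. Loci on chromosomes held 0.130% ± 0.0107 in WT and 0.105% ± 0.0217 in cKO, and those on patches 0.105% ± 0.00773 and 0.109% ± 0.00388. Mean FPKM, a fragment density scaled for transcript length and library size, was at least 1 for 179 loci, with a median of 1.06 over all 337. No read was counted for 12 loci in any library.

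The comparison of cKO with WT asks which of these loci differ when Rictor is deleted in the epithelium. The filter on low counts left 225 loci in the edgeR quasi-likelihood test (161 on chromosomes, 63 on patches and 1 on a scaffold). None of the 225 passed an adjusted p of 0.05, where 2 of all 14701 rows tested did (0.0136%), and the smallest adjusted p of a locus was 0.921. Log2 fold changes of single loci (cKO over WT, edgeR) are therefore given with their standard errors as descriptions, and none is a call. At an unadjusted p under 0.05, 5 loci were higher in cKO (2.22% of the 225, beside a background of 1.83% of all rows). A further 18 were lower (8.0%, beside 2.07%). The share of higher loci is thus near that of all rows. Those 23 loci are 10.2% of the 225 tested, against 3.90% of all rows. Without WT library 2 the count was 15 (6.58%, against 2.84% of all rows). DESeq2 gave 27 loci at an unadjusted p under 0.05 (12.0%, against 4.15% of all rows) and none past its adjusted threshold.

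All 5 higher loci were on patches, while 16 of the 18 lower loci were on chromosomes. On patches 7.94% of tested loci were higher and 3.17% lower, and on chromosomes 0% and 9.94%, beside 1.83% and 2.07% of all rows. The split by place was not tested. The median log2 fold change was -0.17 over the 161 chromosome loci, 0.10 over the 63 patch loci and 0.00 over all rows tested. Chromosome loci without a Pfam domain, 126 tested, were negative in 82, with a median of -0.12. Of these 126, 6 were lower at an unadjusted p under 0.05 (4.76%, against 2.07% of all rows) and 0 higher (against 1.83%). With both libraries 3 left out, the median over all 225 loci moved from -0.12 to -0.02 and the counts at an unadjusted p under 0.05 became 11 higher and 8 lower, which is 8.44% of the loci against 5.05% of all rows in that fit. The 4 cKO values lay wholly below the 4 WT values in 8 loci, beside 1.8% of all rows, and wholly above them in 1 locus, beside 1.41%. Variation between libraries was larger in these loci than in the table as a whole. The median biological coefficient of variation was 31.3% over the tested loci, 28.7% over those on chromosomes, 46.8% over those on patches and 19.0% over all rows. The rows were not matched on level, and the part of low counts in this difference was not tested.

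**Figure D1:**
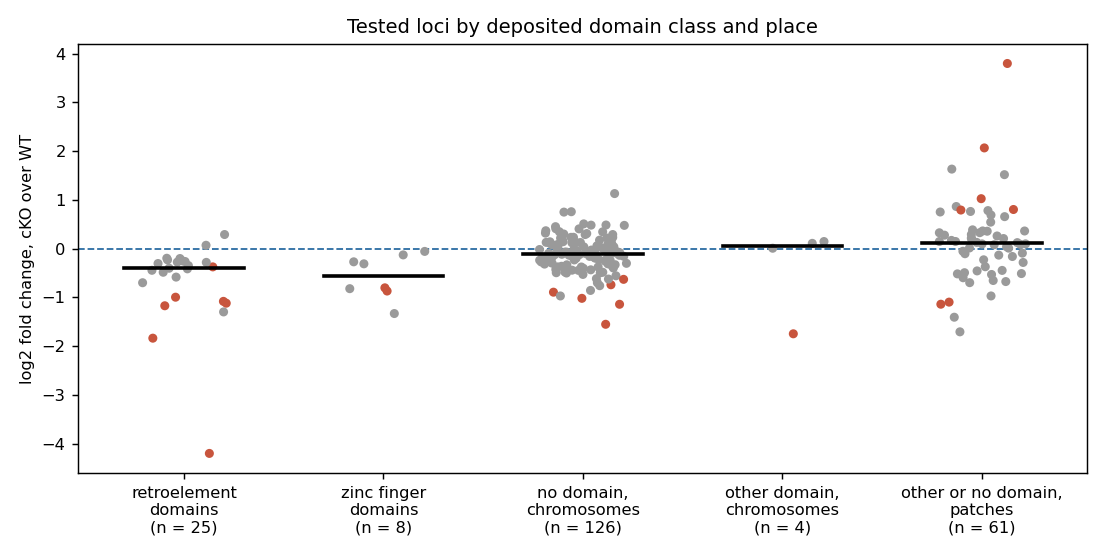
Log2 fold change (cKO over WT, edgeR) of the 224 tested loci on chromosomes or patches, by domain class and place; each point is a locus, red points have an unadjusted p under 0.05, black bars are medians and the dashed line is the median of all 14701 rows. The medians of the retroelement and zinc finger classes and of the chromosome loci without a domain lie below the dashed line. That of the patch loci lies slightly above it.

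Loci with retroelement domains had mostly lower values in cKO. Of 33 such loci 25 were tested, and the log2 fold change was negative in 23, with a median of -0.40 and 7 at an unadjusted p under 0.05, all lower (2.07% of all rows were lower at that p). The class was defined from the deposited domain names after values had been seen, so no test is given for it. How reads that align to several places were counted is not stated. Related loci may therefore share reads, and the 25 need not be separate observations. Summed over the 33 loci, the share of counts was 0.0429, 0.0631, 0.0655 and 0.0572% in WT libraries 1 to 4 and 0.0344, 0.0456, 0.0221 and 0.0441% in cKO libraries 1 to 4. WT library 1 lay within the cKO range, and cKO library 3 was the lowest of all. That library held the lowest value of 17 of the 25 tested loci. Without both libraries 3 the sign was negative in 20 of 25 with a median of -0.43, and 2 loci had an unadjusted p under 0.05 (5.05% of all rows). Leaving out WT library 2 alone left 1 (2.84% of all rows), as did leaving out cKO library 1 alone (5.39% of all rows), and voom with quality weights gave 3 (8.14% of all rows). In bulk libraries fewer cells that transcribe a locus and less RNA per cell cannot be told apart.

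Locus 228 (chromosome 8, 119889638 to 119897283, minus strand) had the smallest p of all 225 loci. Its deposited domains are the gag inner coat and matrix proteins, the integrase end typical of murine leukemia virus and the envelope polyprotein, which together are those of a type C endogenous retrovirus. It is 5011 bases long with a span of 7646 bases, lies between genes, and its nearest gene in the table is Klhl36 (12643 bases away). WT libraries 1 to 4 had 36.3, 42.6, 53.6 and 49.3 CPM and cKO libraries 17.5, 22.7, 11.1 and 34.7 CPM. All 4 cKO libraries were below the lowest WT library, with a log2 fold change of -1.08 (SE 0.30) that lay between -1.40 and -0.86 with each library left out in turn and -0.71 in limma voom with sample quality weights. Klhl36, which encodes a BTB and kelch domain protein, had a log2 fold change of 0.30.

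Locus 100 (chromosome 18, 30266321 to 30272146, plus strand) and locus 62 (chromosome 15, 76560131 to 76566562, minus strand) were more abundant but spread widely. Locus 100 carries gag and RNase H domains, is unspliced and overlaps the RefSeq span of Pik3c3, the class III phosphatidylinositol 3-kinase of autophagy and endosomes, whose row in the deposited table lies 601 bases away. In M21 it shares an exon with AC102496.1. Its WT libraries had 30.8, 86.4, 151 and 59.6 CPM and its cKO libraries 19.9, 33.1, 2.92 and 36.1 CPM, so that WT library 1 lay among the cKO values and both libraries 3 were the extremes. The log2 fold change was -1.84 (SE 0.77), and -0.99 without both libraries 3. For locus 62, with envelope and integrase domains, the values were 68.3, 43.7, 146 and 65.5 CPM across WT and 36.8, 53.5, 3.93 and 37.4 CPM across cKO. The log2 fold change was -1.30 (SE 0.72) and -0.47 without both libraries 3. The groups overlapped through WT library 2 and cKO library 2.

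Locus 162 (chromosome 4, 15236765 to 15242225, minus strand), with envelope and integrase domains, had the highest FPKM among retroelement loci after loci 67 and 62. Values were 16.2, 22.5, 18.1 and 21.9 CPM across WT and 12.7, 17.4, 16.6 and 14.1 CPM across cKO, which overlapped. Its log2 fold change of -0.37 (SE 0.15) was small, and stayed between -0.46 and -0.29 under the alternatives. Locus 15 (chromosome 10, 8548609 to 8550833, minus strand), with gag domains, had 2.65, 7.57, 5.99 and 5.07 CPM across WT and 1.95, 2.36, 1.57 and 4.81 CPM across cKO, overlapping through WT library 1 and cKO library 4, and a log2 fold change of -0.99 (SE 0.40). Locus 180 (chromosome 5, 30226205 to 30232530, minus strand), which carries gag, protease, dUTPase and reverse transcriptase domains and lies 51 bases from the lipid synthesis gene Selenoi, had 13.9, 14.9, 15.3 and 14.1 CPM across WT and 10.9, 13.8, 8.60 and 12.5 CPM across cKO. Its groups did not overlap, while its log2 fold change of -0.35 (SE 0.16) missed an unadjusted p of 0.05.

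L1 domains marked loci 67 and 71. Locus 67 (chromosome 16, 45502455 to 45532028, minus strand) carries an L1 RNA-binding domain, a reverse transcriptase and an immunoglobulin V-set domain, and follows the RefSeq gene Gm17783, whose start lies 8 bases from the locus's 5′ end. It was the most counted chromosome locus, with 141, 222, 158 and 194 CPM across WT and 149, 196, 87.2 and 163 CPM across cKO. The groups overlapped and the log2 fold change was -0.26 (SE 0.23); without cKO library 3 it was -0.08. Locus 71 (A630089N07Rik, chromosome 16, 98059495 to 98082425, minus strand) had 8.91, 10.8, 8.59 and 9.11 CPM across WT and 9.95, 8.68, 4.44 and 7.77 CPM across cKO with a log2 fold change of -0.28 (SE 0.23). Locus 147 (chromosome 3, 144782466 to 144794206, minus strand), an unspliced locus of 11741 bases with a reverse transcriptase domain, overlaps the RefSeq gene Clca3a2 of the chloride channel accessory family. Its values were 24.4, 31.6, 31.6 and 19.4 CPM across WT and 14.5, 18.5, 25.8 and 32.5 CPM across cKO, a log2 fold change of -0.23 (SE 0.25) that ranged from -0.44 without cKO library 4 to -0.06 without cKO library 1.

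Zinc finger loci numbered 13, of which 8 were tested. All 8 had a negative log2 fold change, with a median of -0.56, and 2 had an unadjusted p under 0.05 (3.90% of all rows did), or 4 without WT library 1 (3.54% of all rows). This depended on the libraries numbered 3: 6 of the 8 were lowest in cKO library 3, and without both libraries 3 the sign was negative in 6 of 8 with a median of -0.17. In limma voom with sample quality weights it was negative in 6 of 8 with a median of -0.06, and 1 had an unadjusted p under 0.05 (8.14% of all rows). Annotated genes that the deposited table puts in the KRAB family, 223 of them tested, had a median log2 fold change of -0.12 with 155 negative, and of -0.0016 with 114 negative without both libraries 3. Those it puts in its separate C2H2 family, 64 tested, had a median of 0.07 with 21 negative.

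Locus 90 (chromosome 17, 22285871 to 22314850, minus strand), the RefSeq gene Gm7072 with a KRAB box and C2H2 fingers, had 4.19, 4.31, 4.14 and 3.85 CPM across WT and 2.61, 3.13, 1.40 and 2.31 CPM across cKO. The WT libraries were nearly level and all 4 cKO libraries lay below them. The log2 fold change was -0.80 (SE 0.26), and between -0.96 and -0.62 with each library left out in turn. Its nearest gene in the table, Zfp944, another zinc finger gene on chromosome 17, had a log2 fold change of -0.30. Locus 36 (chromosome 12, 20241587 to 20245390, plus strand), with a KRAB box, overlaps RefSeq Gm32719. Values were 4.88, 6.19, 12.1 and 8.99 CPM across WT and 4.15, 4.67, 3.71 and 5.07 CPM across cKO, with WT library 1 inside the cKO range. Its log2 fold change of -0.87 (SE 0.28) was -0.53 without both libraries 3.

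Loci 77, 78 and 79, with the related promoters, lie in a row within the deposited span of Chd1, a chromatin remodeler gene that the table draws from 15704967 to 17394898 on the same strand of chromosome 17. Locus 77 had 3.87, 5.25, 3.77 and 6.36 CPM across WT and 6.75, 4.61, 2.92 and 4.24 CPM across cKO (log2 fold change -0.06, SE 0.28). For locus 78 the values were 5.46, 6.19, 8.34 and 6.18 CPM across WT and 6.52, 5.14, 3.76 and 6.29 CPM across cKO (log2 fold change -0.27, SE 0.22), and for locus 79 4.98, 7.18, 7.29 and 7.70 CPM across WT and 5.81, 6.44, 2.87 and 6.80 CPM across cKO (log2 fold change -0.31, SE 0.27). In all 3 the groups overlapped and cKO library 3 was the lowest. Chd1 had a log2 fold change of -0.13. Zfp33b (locus 175, chromosome 5, 104571647 to 104584770, plus strand) was the most abundant zinc finger locus at 4.37 FPKM, and stood at 13.0, 12.3, 13.5 and 15.3 CPM across WT and 11.2, 14.3, 9.33 and 14.7 CPM across cKO, a log2 fold change of -0.13 (SE 0.17).

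Of the other loci lower in cKO, the named ones were low in level. Locus 104 (chromosome 18, 63700574 to 63704147, plus strand, nearest gene Wdr7 at 4548 bases) had 1.27, 0.995, 1.24 and 2.38 CPM across WT and 0.711, 0.354, 0.169 and 0.770 CPM across cKO, which did not overlap, and a log2 fold change of -1.55 (SE 0.47). Locus 11 (chromosome 1, 164222906 to 164229897, minus strand) lies 2629 bases from F5, the gene of coagulation factor V. It had 1.11, 1.11, 1.73 and 0.734 CPM across WT and 0.415, 0.709, 0 and 0.257 CPM across cKO, again without overlap, and a log2 fold change of -1.75 (SE 0.62), or -1.08 without both libraries 3. Locus 87 (chromosome 17, 4979607 to 4981508, minus strand), nearest to the chromatin remodeler gene Arid1b, had 1.06, 1.55, 1.36 and 0.917 CPM across WT and 0.533, 0.827, 0.281 and 0.770 CPM across cKO with a log2 fold change of -1.02 (SE 0.38). Locus 292 (CHR_MG4136_PATCH, 143412735 to 143421091, plus strand) is at the positions of Pramef8 and had 1.59, 0.884, 2.10 and 1.10 CPM across WT and 0.296, 0.768, 0.787 and 0.706 CPM across cKO (log2 fold change -1.14, SE 0.40). These 4 loci had at most 39 reads in any library, and locus 11 had 0 in cKO library 3.

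**Figure D2:**
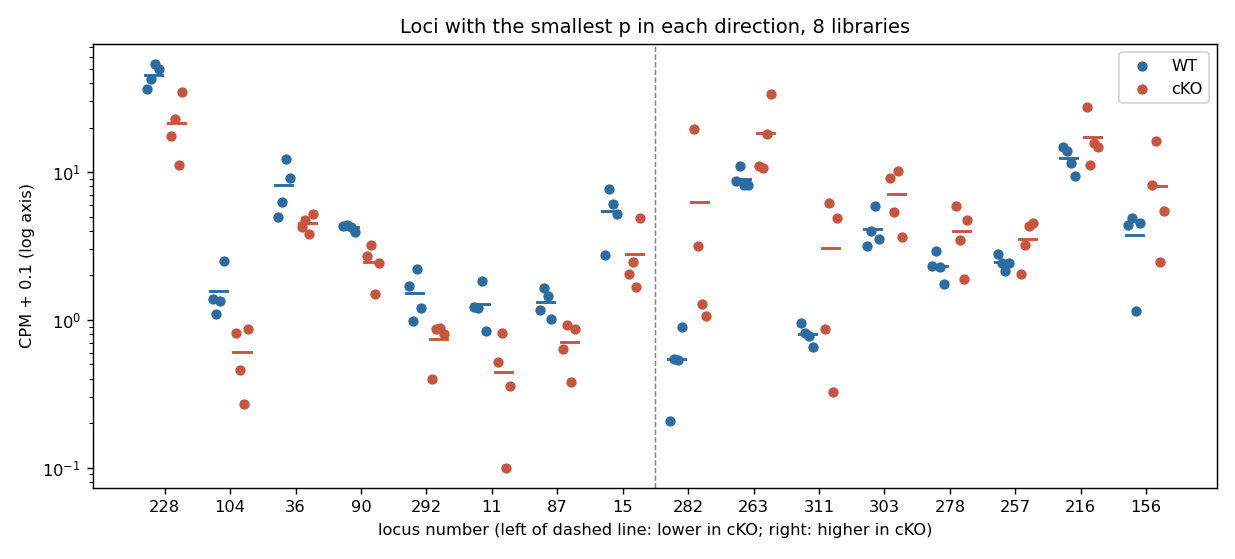
CPM plus 0.1 on a log axis for the 8 loci with the smallest p in each direction; each point is a library (blue WT, red cKO, 4 each) and bars are means. Loci 228, 104, 90, 292, 11 and 87 on the left and locus 282 on the right have groups that do not overlap.

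A positive log2 fold change was found for 49 of the 161 tested chromosome loci and 38 of the 63 tested patch loci, and the 6 with the smallest p in that direction were on patches. Locus 282 (CHR_MG3833_MG4220_PATCH, 18066425 to 18073056, plus strand) has proline dehydrogenase and DGCR6 domains, those of neighbouring genes of the mouse region homologous to the DiGeorge deletion. Values were 0.106, 0.442, 0.433 and 0.795 CPM across WT and 19.5, 3.07, 1.18 and 0.963 CPM across cKO, so every cKO library was above WT but library 1 was 6.34 times the next. The log2 fold change was 3.80 (SE 1.15) and 1.97 without cKO library 1. Locus 263 (CHR_MG191_PATCH, 90940469 to 91019498, plus strand), at the positions of the RNA-binding protein gene Celf1, had 8.64, 10.9, 8.09 and 8.07 CPM across WT and 10.8, 10.5, 18 and 33.4 CPM across cKO. Libraries 1 and 2 of cKO lay within the WT range and libraries 3 and 4 above it, and the log2 fold change of 1.03 (SE 0.35) was 0.56 without cKO library 4.

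Locus 311 (CHR_MG4288_PATCH, 9111480 to 9140464, minus strand) has an F-box domain, the ubiquitin ligase adaptor motif. Skp2 is on the same strand and runs from 9111985 to 9155425. The lower-numbered end of locus 311, where a minus-strand transcript ends, is 505 bases below that of Skp2. Its other end lies inside the Skp2 span. Locus 311 had 0.848, 0.718, 0.680 and 0.550 CPM across WT and 0.770, 6.09, 0.225 and 4.81 CPM across cKO, with cKO libraries 2 and 4 high and cKO library 3 below all WT libraries (log2 fold change 2.07, SE 0.84). Locus 303 (CHR_MG4249_PATCH, 6341191 to 6355576, plus strand), at the positions of the stress kinase gene Map4k2, had 3.08, 3.87, 5.81 and 3.42 CPM across WT and 9.06, 5.26, 10.1 and 3.53 CPM across cKO, overlapping (log2 fold change 0.79, SE 0.34). Locus 278 (CHR_MG3700_PATCH, 77893961 to 77992819, plus strand), the longest transcript of all, had 2.23, 2.82, 2.16 and 1.65 CPM across WT and 5.75, 3.37, 1.80 and 4.62 CPM across cKO (log2 fold change 0.80, SE 0.34). Locus 257 on a patch, with the domain of the Auts2 protein, had 2.70, 2.32, 2.04 and 2.32 CPM across WT and 1.95, 3.13, 4.21 and 4.43 CPM across cKO (log2 fold change 0.54, SE 0.28).

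Only 2 of the 8 loci with the smallest p in the higher direction were on chromosomes, and neither reached an unadjusted p of 0.05. Locus 216 (chromosome 8, 10847380 to 10857533, plus strand, nearest gene Gm32540 at 1217 bases) had 14.7, 13.9, 11.5 and 9.23 CPM across WT and 27.4, 11.1, 15.7 and 14.8 CPM across cKO. Its log2 fold change of 0.48 (SE 0.26) was 0.17 without cKO library 1. Locus 156 (chromosome 4, 144960341 to 144968382, plus strand) had 4.29, 4.81, 1.05 and 4.40 CPM across WT and 8.12, 16.2, 2.36 and 5.33 CPM across cKO, and its log2 fold change of 1.13 (SE 0.60) was 0.53 without cKO library 2.

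By FPKM, a scale per length on which loci can be compared, locus 269 (CHR_MG3172_PATCH, 141704458 to 141713811, minus strand) was highest at 66.9 FPKM, rank 794 of all rows. It carries the WxxW repeat domain of mucin 2, the secreted gel-forming mucin of goblet cells, on the strand opposite to locus 268 (11.5 FPKM), which spans it and has the von Willebrand, cysteine-rich and cystine-knot domains of that mucin. Locus 269 stood at 372, 364, 382 and 303 CPM across WT and 279.9, 317, 358 and 341 CPM across cKO, and locus 268 at 109.5, 109, 108 and 90.1 CPM across WT and 81.1, 96.3, 101 and 77.7 CPM across cKO. Their log2 fold changes were -0.13 (SE 0.12) and -0.23 (SE 0.12), and neither had groups apart. Next came locus 260 (48.6 FPKM, the lysosomal thiol reductase domain of Ifi30), locus 93 (33.3 FPKM, chromosome 17, 44134748 to 44135681, minus strand, within the RefSeq span of Clic5), locus 330 (32.0 FPKM, a ubiquitin and ribosomal S27a domain on an unplaced scaffold), locus 244 (29.1 FPKM, a sulfate permease domain), locus 264 (28.9 FPKM) and locus 49 (22.4 FPKM, chromosome 13, 21812201 to 21820158, minus strand, 54 bases from the histone gene Hist1h4m).

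Of these abundant loci, locus 93 had 25.0, 26.8, 51.9 and 27.9 CPM across WT and 34.3, 27.7, 27.5 and 30.2 CPM across cKO, with WT library 3 alone high. Locus 49 had 32.9, 39.1, 19.4 and 23.3 CPM across WT and 33.4, 33.1, 17.8 and 23 CPM across cKO. Locus 105 (chromosome 18, 66504162 to 66517759, plus strand, RefSeq Gm9926), of 11777 bases, had 85.7, 92.0, 124 and 80.4 CPM across WT and 107, 82.6, 80.8 and 97.9 CPM across cKO. The groups overlapped in each, and none of their log2 fold changes kept its sign under every alternative. Locus 134 (chromosome 2, 25064632 to 25078098, minus strand), 1751 bases from Nsmf, had 39.4, 40.8, 40.3 and 40.2 CPM across WT and 26.9, 49.7, 30.3 and 42.9 CPM across cKO, so that the WT libraries were nearly level and the cKO libraries were spread to both sides of them.

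Many patch loci held the reads of a gene that also has a row on a chromosome. On matching positions and strand (both ends within 600 bases), 27 patch loci on 11 patches paired with a single chromosome gene. The tolerance was chosen after the data were seen, and the files do not tie patches to chromosomes. The patch locus held over 50% of the reads of both rows, as the median over libraries, in 24 of the 27 pairs. For 14 of the chromosome genes no read was counted in any library, and for 8 more between 1 and 9 reads in all 8 libraries together, while the patch loci of these 22 pairs held 22517 reads. No locus of the whole table on a patch had an Ensembl identifier.

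Locus 264 held 3925 reads and its partner Ndufs3, a complex I subunit of the respiratory chain, 0. Its values were 3.45, 32.2, 1.61 and 22.5 CPM across WT and 60.5, 41.9, 36.7 and 32.1 CPM across cKO, with WT libraries 1 and 3 far below the other 6 (log2 fold change 1.52, SE 0.84). Nadk2, the mitochondrial NAD kinase, had 5 reads in its own row and 5147 in locus 309. Splicing factor gene Sf1 had 2 and 1856, Celf1 had 4 and 1826, and the tumour suppressor gene Men1 had 0 and 355. Ifi30 had 176 reads in its row and 6838 in locus 260, at 54.5, 52.9, 41.5 and 43.6 CPM across WT and 61.7, 48.5, 59.9 and 34.6 CPM across cKO for the locus.

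Reads were counted in both rows of 12 pairs, in 9 of which the patch locus held over 80% in every library. In Lmbrd2 the patch locus held 57.4% to 83.8% of reads, in Tmem134 0.41% to 59.2%, and in Vezf1 0% to 49.0%. In Pik3r2 all 1192 reads were in the chromosome row. The Ifi30 row on chromosome 8 had 4.75 CPM in cKO library 4 and between 0.477 and 1.18 CPM elsewhere, a log2 fold change of 1.41 (SE 0.57), and its sum with locus 260 had 0.12 (SE 0.16). For Tmem134 the chromosome row had 1.22 (SE 0.58), locus 253 had 0.78 (SE 0.80) and the sum 1.15 (SE 0.40, adjusted p = 0.921 in edgeR). For Celf1, with 4 reads in its own row, the sum had 1.03, as did the locus alone.

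**Figure D3:**
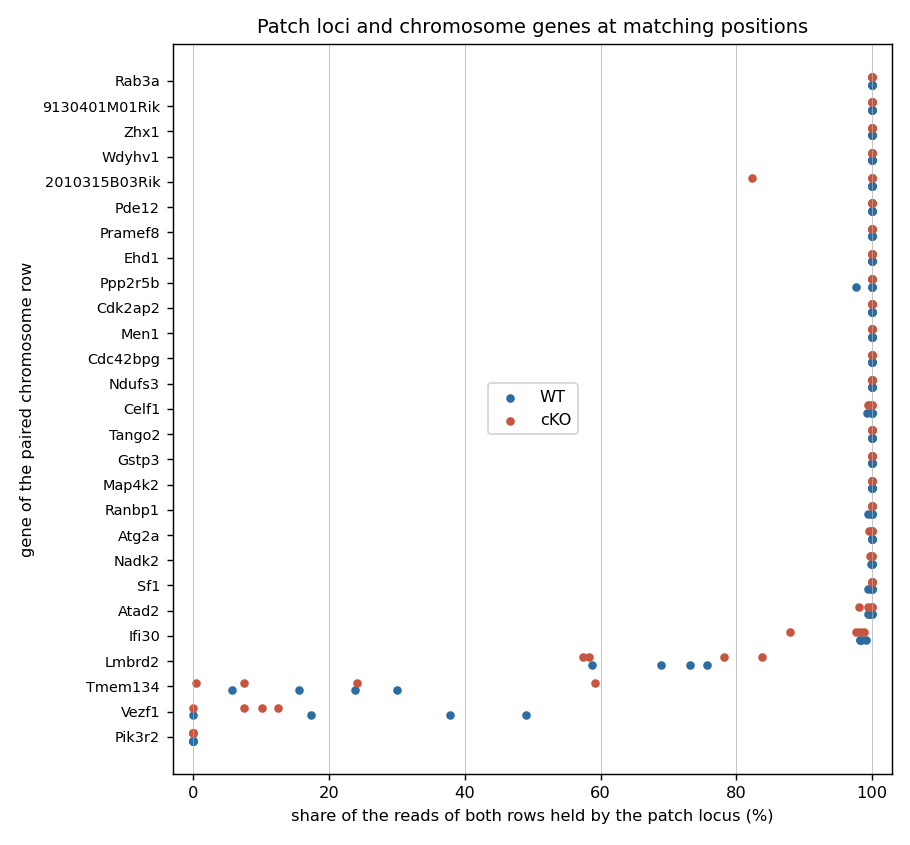
Share of the reads of both rows that the patch locus held, in percent, for the 27 pairs; each point is a library (blue WT, red cKO). In most pairs all 8 libraries lie at or near 100%, and Lmbrd2, Tmem134, Vezf1 and Pik3r2 lie lower.

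A further 7 patch loci, chosen after their values were seen, could be set beside a chromosome gene whose product has the same domain and whose positions they overlap, although their ends differ by more. The Ensembl row of Muc2 had 8.64, 9.51, 10.1 and 7.77 CPM across WT and 4.21, 14.8, 9.66 and 27.9 CPM across cKO. Locus 268, on the same strand and starting 89 bases before it, held 89.5% of the reads of the pair. Locus 269 is on the opposite strand, with its lower-numbered end 14118 bases after the start of Muc2. It held 46522 reads, or 96.8% of its reads with the Muc2 row. Locus 321 (84.1, 90.6, 127 and 86.6 CPM across WT and 103, 103, 56.8 and 99.2 CPM across cKO) held 93.6% of its reads with Anxa13, an annexin of the intestinal epithelium, whose own row had between 2.08 and 4.45 CPM in 7 libraries and 27.9 CPM in cKO library 2. Locus 244 (48.7, 63.5, 104 and 53.1 CPM across WT and 109, 63.5, 111 and 68.0 CPM across cKO) held 99.3% with Slc26a6, an anion exchanger. Locus 315 (23.7, 39.7, 27.5 and 11.4 CPM across WT and 42.1, 61.4, 6.85 and 21.4 CPM across cKO) held all 4004 reads at the positions of Ide, the insulin-degrading enzyme gene. Skp2 and Dgcr6 likewise had 0 reads in their own rows beside 244 in locus 311 and 447 in locus 282. Locus 282 starts 13565 bases after the start of Dgcr6 and ends beyond it (18073056 against 18071632). It also has a proline dehydrogenase domain, and how many of its reads come from Dgcr6 was not tested.

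Several loci were present in some libraries and near 0 in others, and apart from locus 282 the high and low libraries of each came from both genotypes or the high value was a single library. By a rule set after the values were seen, a row with at least 50 reads in 1 library and at most 2% of that in another, there were 7 such loci among 165 that reached 50 reads (4.24%), and 47 such rows among 12343 of the table (0.381%). Locus 148 (chromosome 4, 12235334 to 12238019, plus strand), 1383 bases from Gm11847, had 301, 285, 3 and 5 reads across WT and 249, 523, 1 and 6 reads across cKO, so libraries 1 and 2 of both genotypes were high and libraries 3 and 4 of both were near 0. Locus 179 (chromosome 5, 23691827 to 23695671, minus strand), with envelope and integrase domains, had 444 reads in WT library 2 and 0 in the other 7. Locus 337 (chromosome Y, 58850762 to 58854802, minus strand), with gag and protease domains, had 564 reads in the same library and between 4 and 18 elsewhere. Its log2 fold change was -4.20 (unadjusted p = 0.035 in edgeR). It is therefore among the loci with retroelement domains counted above as lower at an unadjusted p under 0.05.

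Locus 169 (chromosome 4, 141207498 to 141210780, minus strand), with RNase H and dUTPase domains, had 76 reads in WT library 2, 79 in cKO library 3, 70 in cKO library 4 and at most 1 in the remaining 5. Locus 323, on the contig CHR_PWK_PHJ_MMCHR11_CTG1 that holds sequence of the PWK/PhJ strain, has the domain of interferon-inducible GTPases, a family of cell-autonomous immunity. It had 0, 1, 90 and 110 reads across WT and 157, 35, 165 and 1 reads across cKO, so that 3 libraries of the 8 were at 0 or 1. Locus 103 (chromosome 18, 60358637 to 60363426, plus strand), of the same GTPase family and 12603 bases from Iigp1, had 79 reads in cKO library 1 and at most 5 elsewhere. Locus 282 also meets the rule, through its 329 reads in cKO library 1. Locus 42, with the superantigen and envelope domains of mouse mammary tumour virus, did not meet it but had 8.38, 10.1, 9.39 and 43.5 CPM across WT and 25.5, 6.91, 8.03 and 7.13 CPM across cKO, with WT library 4 and cKO library 1 high.

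**Figure D4:**
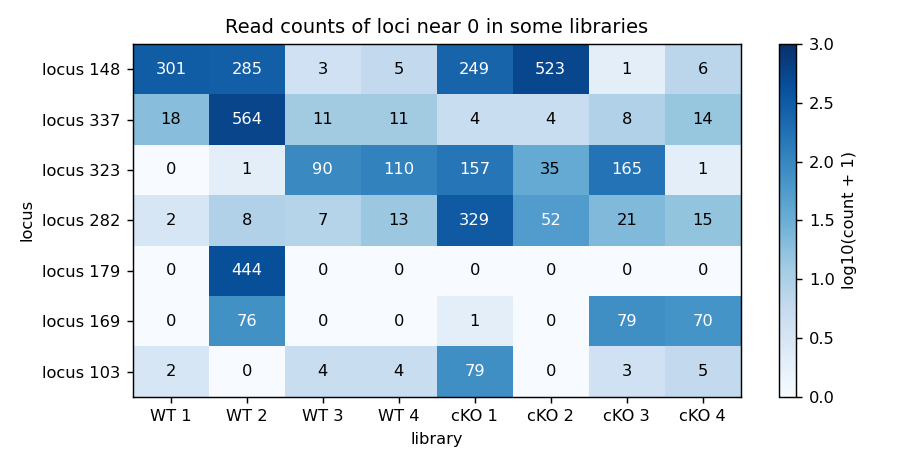
Read counts in each of the 8 libraries for the 7 loci that reached 50 reads in 1 library and had at most 2% of that in another; shading is log10 of the count plus 1. Locus 179 has reads in WT library 2 only, and locus 148 is high in libraries 1 and 2 of both genotypes.

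Loci on opposite strands overlapped in 20 pairs, of which 16 held at least 100 reads. In 8 of these 16 more than 98% of reads were assigned to 1 strand. Locus 228 had 4548 reads and its opposite, locus 220, 0. The pair of locus 90 and locus 81 had 445 and 0, and loci 55 and 54, of equal span and length, 268 and 0. Reads were divided in others: the mucin loci 269 and 268 had 46522 and 13256, and loci 284 and 282 had 649 and 447. How the counting treated strand is not stated in the labels, and reads from such partners cannot be told apart if it was not used.

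The nearest annotated gene of the table could be found for 247 loci. It overlapped 4 of them and lay at a median distance of 3932 bases from the rest, within 5000 bases for 131. It was on the same strand for 112 and protein coding for 140. In 107 pairs both locus and gene were tested. Both log2 fold changes were negative in 45 pairs and positive in 16, the locus was lower and the gene higher in 31, and the reverse held in 15. Thus the locus was lower in 76 of the 107 pairs and the gene in 60. A gene nearest to several loci counts once for each, as Chd1 does for loci 77, 78 and 79. Over the 107 pairs the genes had a median log2 fold change of -0.03. In 7 pairs the gene had an unadjusted p under 0.05, where 3.90% of all rows did, each counted once. Locus 62 with Adck5 (-1.30 and 0.28) and locus 228 with Klhl36 (-1.08 and 0.30) were pairs of opposite sign, and locus 204 with 2200002J24Rik (-1.12 and -0.45) a pair of the same sign.

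**Figure D5:**
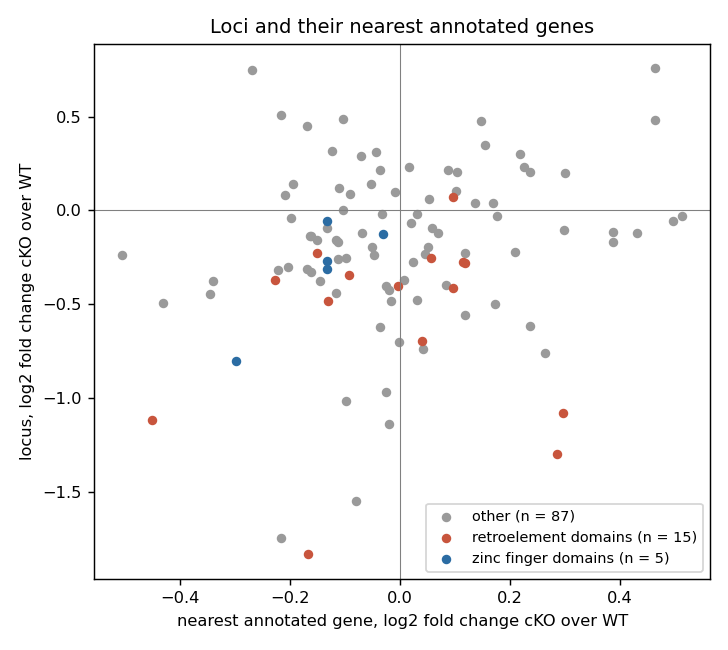
Log2 fold change (cKO over WT, edgeR) of a locus against that of its nearest annotated gene for the 107 pairs in which both were tested; each point is a pair, coloured by the domain class of the locus. Retroelement loci (15 pairs) lie mostly below 0 on the vertical axis and on both sides of 0 on the horizontal axis.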

How the data were processed

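The libraries were aligned with Hisat2 and assembled with Stringtie, per the series' design text; versions, counter, strand handling, treatment of multiply aligned reads and build are not stated there. Of the 53801 deposited Ensembl identifiers, 53706 are in GENCODE M21 (GRCm38), and 52142 (97.1%) have the same coordinates there. The deposited values were whole-number read counts per row and FPKM, per kilobase of row length, both made by the authors. Counts of all 54139 rows were filtered with filterByExpr, scaled by TMM and tested with edgeR 4.0.16 (quasi-likelihood, robust), cKO against WT, 4 libraries each, with Benjamini-Hochberg adjustment over 14701 rows; DESeq2 1.42.0 and limma 3.58.1 were alternatives. Named loci are the 8 with the smallest p in each direction, the 10 highest by CPM and by FPKM, and the 5 longest by length and by span, with their nearest genes; others are named as examples after their values were seen. The members, classes and lists were chosen with earlier results of these data known. The test was first run on simulated counts with known changes. RefSeq tables of GRCm38.p6 gave promoters and gene overlaps. Total counts of 15110451 to 18708335 leave loci under 1 CPM with fewer than 20 reads per library. Alternatives were other scalings, filters and tests, a replicate term, and libraries left out. One locus is not reported here.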

Additional observations from a re-analysis of the deposited data

Results flagged for a closer look

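Among 75 groups of 4 libraries looked at, 8 had a library far from the other 3, where the gap to the nearest library over the group's whole range passed Dixon's critical value; chance gives about 1 in 20. Locus 268 was low in WT library 4 (90.1 CPM, others 108 to 109.5, ratio 0.9116). Locus 321, with an annexin domain, was high in WT library 3 (127 CPM, others 84.1 to 90.6, ratio 0.8465) and low in cKO library 3 (56.8 CPM, others 99.2 to 103, ratio 0.9219). Locus 93 was high in WT library 3 (51.9 CPM, others 25.0 to 27.9, ratio 0.8938), and locus 156 was low there (1.05 CPM, others 4.29 to 4.81, ratio 0.8633). In cKO library 1, locus 282 was high (19.5 CPM, others 0.963 to 3.07, ratio 0.8861), locus 292 was low (0.296 CPM, others 0.706 to 0.787, ratio 0.836) and locus 313 had 0.178 CPM beside 0 in the others (ratio 1.0), which is 3 reads.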

How the results depend on the processing

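No locus passed an adjusted p of 0.05 in any of the alternatives run, which limits every statement on genotype to values. The number of all rows past it was 2, and became 10 with no filter, 37 in DESeq2, 8 in limma voom with sample quality weights, 1 in limma on log2(FPKM + 0.1), 0 on log2(FPKM + 1) (616 at an unadjusted p under 0.05), 4 without both libraries 3, and 0 to 3 with each library left out in turn. Same-numbered libraries had correlated deviations of -0.108, 0.108, 0.152 and 0.138, so the numbers were not taken as pairs. With the replicate block 0 rows passed. At an unadjusted p under 0.05 it had 554 rows (3.77%) and 19 loci (8.44%). The main count of 23 loci ranged from 15 to 22 with each library left out (6.58% to 9.61% of the loci, against 2.84% to 5.39% of all rows). Loci whose groups do not overlap numbered 9: 8 lower (3.56%, against 1.8% of all rows) and 1 higher (0.444%, against 1.41%). They numbered 5 under the CPM filter, 22 without both libraries 3 and 14 to 20 with each library left out, where smaller groups separate more readily. The share over all rows was not computed in those settings, so these counts are not a result about the loci. Nearest-gene pairs of the same sign numbered 61, and 107 with no filter, where more pairs are tested. Of the named loci, 10 changed sign in log2 fold change; the cause was not tested. Under voom with quality weights this was so for loci 105 (0.053), 321 (0.13), 260 (-0.23), 134 (0.048), 93 (0.11), 330 (-0.013) and 75 (0.086). Without both libraries 3 it held for loci 105 (0.15), 321 (0.22), 260 (-0.060) and 93 (0.21). With 1 library left out the range was -0.13 to 0.096 for locus 105, with 0.0019 without cKO library 2 and 0.0035 without cKO library 3. It was -0.17 to 0.066 for locus 321, with 0.05 without WT library 3, -0.013 to 0.24 for locus 260, -0.26 to 0.026 for locus 134, -0.24 to 0.17 for locus 93, -0.12 to 0.70 for locus 315, -0.24 to 0.089 for locus 49 with 0.06 without cKO library 3, -0.000168 to 0.59 for locus 330 and -0.29 to 0.015 for locus 75. Locus 293 was -0.034 with the replicate block, -0.019 on log2(FPKM + 0.1), and -0.06, -0.01, -0.14, -0.16 and -0.18 without WT libraries 2, 3, 4 and cKO libraries 1 and 4, up to 0.31 without WT library 1.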
